A study of Mus musculus with 21 samples.

Results

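The genes described here encode the contractile apparatus of smooth muscle and its transcriptional coactivator: Acta2, Actg2, Tagln, Cnn1, Smtn, Lmod1, Myh11, Myl9, Mylk and Myocd. They were taken by name, with Ensembl gene identifiers matched to mouse symbols, and are 10 of the 26852 genes in the deposited table. Smooth muscle cells shorten when myosin filaments pull on actin filaments that are anchored at dense bodies and at the cell membrane. Calcium bound to calmodulin activates myosin light chain kinase, the kinase phosphorylates the regulatory light chain, and the phosphorylated myosin cycles on actin. In bone marrow these proteins are known from the vascular smooth muscle cells of arterioles and from some pericytes and other perivascular stromal cells, and serum response factor with its coactivator myocardin drives many of the genes through a DNA element called the CArG box.

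RNA sequencing was done on Nes-low mesenchymal cells sorted from the bone marrow of mice of the host strain Nestin+ NSG, an immunodeficient strain. There were 3 control libraries (ctrl) from unengrafted mice, and 18 libraries from mice that received human acute myeloid leukemia cells of the line HL60 or ML1, without conditioning, at 8 to 12 weeks of age. The 6 early ch+ libraries came from niche cells that carried the cherry label marking the neighbourhood of leukemia cells, the 6 early ch- libraries from cells without it at early time points of leukemia, and the 6 late libraries from late time points. Each leukemic group held 3 libraries of HL60 and 3 of ML1. The treatment field of the ML1 late libraries reads "unengrafted", against their titles and time point field, and they were kept as late. The extraction text speaks of endothelial cells sorted by CD31, while the source field names mesenchymal cells. The paper describes the early ch- cells as taken from the same marrow as the early ch+ cells. The labels do not say which libraries share a mouse, so the tests treat libraries as separate. They measure the spread between libraries, which may in part be technical.

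The values are regularized log2 values, so the read depth of each library is unknown. The summed normalized signal, in units of 1e6, was 11.9 to 14.2 in the control libraries, 12.3 to 14.7 in early ch-, 11.2 to 12.7 in early ch+ and 7.27 to 9.02 in late. Mitochondrial genes held 5.95% to 6.65% of it in the control libraries, 10% to 13.6% in early ch-, 11% to 13.2% in early ch+ and 8.04% to 14.4% in late, a difference whose part in the comparisons with ctrl was not tested. The labelled cell type was checked against marker lists. The mean log2 value of 10 markers of CXCL12-abundant reticular (CAR) and other mesenchymal stromal cells was 11.15 in ctrl, 11.49 in early ch-, 11.76 in early ch+ and 11.95 in late. The mean over 8 endothelial markers was 4.91, 4.92, 5.05 and 4.62 in the same order, and that over 8 blood cell markers was 3.71, 6.36, 6.42 and 3.27. Osteoblast markers averaged 13.95, 13.88, 13.54 and 11.72 and chondrocyte markers 11.67, 10.87, 8.15 and 8.11, so osteoblast markers stood above the mesenchymal list in ctrl, early ch- and early ch+, and chondrocyte markers did so in ctrl. In late the lines differed: osteoblast markers averaged 12.55 to 12.87 in the 3 HL60 libraries, above the mesenchymal 11.78 to 12.11, and 10.48 to 11.04 in the 3 ML1 libraries, below the mesenchymal 11.87 to 12.07. The lists hold different genes and these means are not corrected for gene length, so their order does not rank cell types.

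All 10 genes passed the filter on low values, a mean log2 value of at least 3.32 over the 21 libraries, as did 12976 genes in all. Each comparison was tested in limma with adjustment over those 12976 genes, and a gene was called at an adjusted p (Benjamini-Hochberg) under 0.1. For early ch+ against ctrl 8 of the 10 genes were called lower, against 2.75% of all tested genes, and in late against ctrl 6 of 10 were called lower, against 11.4%. When early ch+ was compared with early ch-, which uses no control library, 8 of 10 were called lower, against 2.68% of all tested genes. In early ch- against ctrl limma called 0 of 10, against 1.92% called in either direction, and 4 of the 10, all lower, had an unadjusted p under 0.05, against 5.33% of all tested genes. The 3 comparisons with ctrl share the same 3 control libraries. In bulk samples fewer cells of a type and less RNA per cell cannot be told apart.

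The median log2 fold change of the 10 genes was −2.23 in early ch+ against ctrl, −0.58 in early ch- against ctrl, −0.97 in late against ctrl and −1.75 in early ch+ against early ch-. The same median over all tested genes was 0.01, 0.01, 0.02 and −0.02. With all libraries brought to the same summed signal (rescaling to the mean total), the median over all genes became 0.09, −0.06 and 0.71 in the comparisons with ctrl and 0.13 in early ch+ against early ch-. It became 0.63 in late against early ch+ and 0.77 in late against early ch-. Changes in late are therefore also given relative to the median of all genes, a difference that this rescaling leaves as it is.

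**Figure D1:**
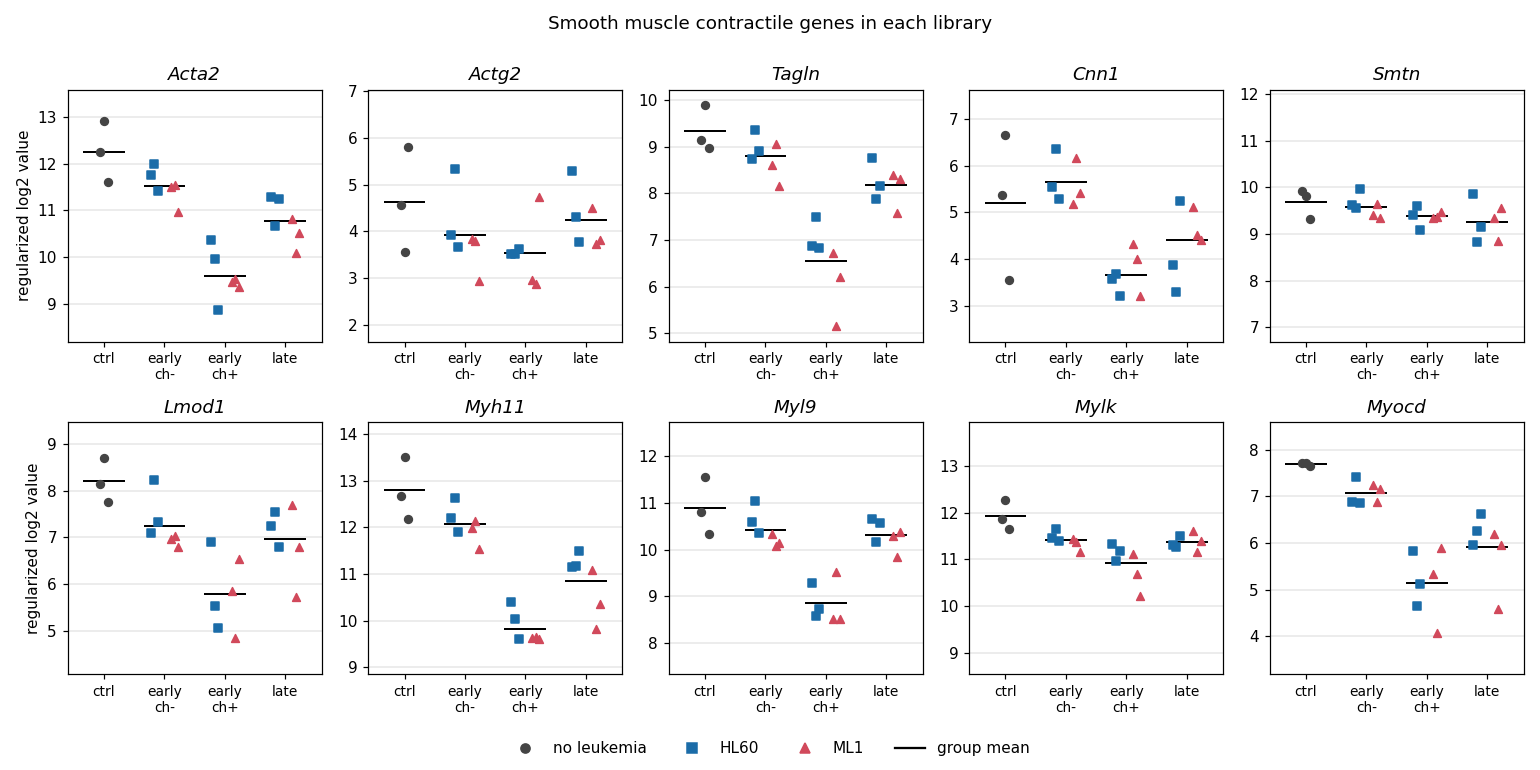
Regularized log2 value of each of the 10 genes (y axis, a span of equal length in every panel) in each of the 21 libraries, by group (x axis), with circles for ctrl, squares for HL60, triangles for ML1 and a line at the group mean. Early ch+ libraries lay below every early ch- library for 6 genes, while the Smtn groups overlapped.

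Acta2 (ENSMUSG00000035783, chr19:34241090-34255590, minus strand, GRCm38) encodes the alpha actin of smooth muscle thin filaments. Its log2 values were 12.24, 12.92 and 11.61 in the control libraries. They ran from 10.97 through a median of 11.52 to 11.98 in early ch-, from 8.86 through 9.50 to 10.36 in early ch+, and from 10.08 through 10.74 to 11.28 in late. Every early ch+ and every late library lay below the lowest control, and every early ch+ library lay below every early ch- library. With the cell lines apart, Acta2 averaged 11.72 ± 0.28 (SD, n = 3) in HL60 and 11.34 ± 0.32 (SD, n = 3) in ML1 in early ch-, 9.73 ± 0.78 and 9.45 ± 0.08 in early ch+, and 11.07 ± 0.35 and 10.46 ± 0.36 in late. Acta2 fell in early ch+ (log2 fold change −2.67, SE 0.28, adjusted p = 2.28e-07) and in late (−1.49, SE 0.28, adjusted p = 0.000205), both against ctrl, and in early ch+ against early ch- (−1.94, SE 0.23, adjusted p = 6.21e-07). Early ch- differed from ctrl by −0.73 (adjusted p = 0.263), and by −1.05 to −0.40 with 1 library left out.

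Actg2 (ENSMUSG00000059430, chr6:83512905-83536265, minus strand) encodes the gamma actin of smooth muscle, best known from the gut and other visceral organs. In ctrl its values were 4.55, 3.55 and 5.80, and the groups spanned 2.94 to 5.34 in early ch-, 2.88 to 4.73 in early ch+ and 3.74 to 5.30 in late. All 4 groups overlapped, and the control libraries alone spanned most of the range. HL60 and ML1 libraries of Actg2, 3 each, averaged 4.31 ± 0.90 and 3.52 ± 0.51 (SD) in early ch-, 3.55 ± 0.06 and 3.53 ± 1.05 in early ch+, and 4.46 ± 0.78 and 4.02 ± 0.43 in late. Its log2 fold change was −1.10 (SE 0.48, adjusted p = 0.232) in early ch+ against ctrl and −0.40 (adjusted p = 0.658) in late against ctrl, the latter turning to 0.30 when libraries were rescaled to the mean total and to 0.18 without ctrl replicate 375. Without ctrl replicate 374 the early ch+ value was −1.64 and was called, and without ctrl replicate 375 it was −0.52. In early ch+ against early ch- it was −0.38 (adjusted p = 0.708), and −0.62 to −0.10 with 1 library left out.

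Tagln (ENSMUSG00000032085, chr9:45929619-45936058, minus strand) encodes transgelin, an actin-binding protein of the calponin family and an early marker of smooth muscle. The 3 control libraries had values of 9.14, 9.90 and 8.97, and it ran from 8.16 through 8.82 to 9.35 in early ch-, from 5.15 through 6.77 to 7.48 in early ch+, and from 7.57 through 8.23 to 8.75 in late. Early ch+ lay below each of the other groups with no overlap, and late lay below every control. With the cell lines apart, Tagln in early ch- spanned 8.74 to 9.35 in HL60 and averaged 8.61 ± 0.45 (SD, n = 3) in ML1, and HL60 and ML1 averaged 7.06 ± 0.36 and 6.02 ± 0.80 in early ch+, and 8.26 ± 0.44 and 8.09 ± 0.45 in late. Tagln fell in early ch+ against ctrl (log2 fold change −2.79, SE 0.34, adjusted p = 3.79e-06), against early ch- (−2.26, SE 0.28, adjusted p = 1.47e-06), and in late against ctrl (−1.16, SE 0.34, adjusted p = 0.0160). The late call was lost without ctrl replicate 374, at −0.88, and after rescaling to the mean total, at −0.47.

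Cnn1 (ENSMUSG00000001349, chr9:22099216-22109630, plus strand) encodes calponin, which binds actin and restrains the myosin ATPase. Its control values were the widest of the 10 genes, at 5.37, 6.66 and 3.54. The early ch- libraries ran from 5.18 through 5.48 to 6.36, early ch+ from 3.20 through 3.63 to 4.32, and late from 3.29 through 4.47 to 5.25. Every early ch+ library lay below every early ch- library, while the controls overlapped all 3 leukemic groups. HL60 and ML1 libraries of Cnn1, 3 each, averaged 5.73 ± 0.56 and 5.58 ± 0.51 (SD) in early ch-, 3.49 ± 0.25 and 3.84 ± 0.58 in early ch+, and 4.13 ± 1.01 and 4.68 ± 0.38 in late. Cnn1 fell by 2.00 on the log2 scale in early ch+ against early ch- (SE 0.40, adjusted p = 0.00135). Its call in early ch+ against ctrl (−1.53, SE 0.48, adjusted p = 0.0737) rested on single libraries. It was not called without ctrl replicate 373 (−1.44), ctrl replicate 374 (−0.79), early ch+ replicate 523 (−1.51), 525 (−1.43) or 541 (−1.43), nor after rescaling to the mean total (−1.45), and it was −2.35 without ctrl replicate 375. For late against ctrl the log2 fold change was −0.78 (adjusted p = 0.318), and it was −1.61 and called without ctrl replicate 375, and −0.05 without ctrl replicate 374. For early ch- against ctrl it was 0.47 (adjusted p = 0.765), and −0.36 without ctrl replicate 375.

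Lmod1 (ENSMUSG00000048096, chr1:135324807-135368065, plus strand) encodes leiomodin, which nucleates actin filaments in smooth muscle. Its control values were 8.13, 8.69 and 7.76, and it ran from 6.78 through 7.06 to 8.22 in early ch-, from 4.84 through 5.69 to 6.89 in early ch+, and from 5.73 through 7.01 to 7.70 in late. Early ch+ and late lay below every control, while early ch+ and early ch- met between 6.78 and 6.89. With the cell lines apart, Lmod1 averaged 7.55 ± 0.59 (SD, n = 3) in HL60 and 6.92 ± 0.13 (SD, n = 3) in ML1 in early ch-, 5.83 ± 0.95 and 5.74 ± 0.85 in early ch+, and 7.19 ± 0.38 and 6.74 ± 0.99 in late. Lmod1 fell in early ch+ against ctrl (log2 fold change −2.41, SE 0.41, adjusted p = 0.000423), against early ch- (−1.45, SE 0.34, adjusted p = 0.00724), and in late against ctrl (−1.23, SE 0.41, adjusted p = 0.0393). In early ch- against ctrl it was −0.96 (SE 0.41, adjusted p = 0.345), not called. The late call was lost without ctrl replicate 374, at −0.98, and after rescaling to the mean total, at −0.54.

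Smtn (ENSMUSG00000020439, chr11:3517523-3540612, minus strand) encodes smoothelin, an actin-associated protein of differentiated contractile cells. In ctrl its values were 9.92, 9.81 and 9.33, and the groups spanned 9.34 to 9.96 in early ch-, 9.09 to 9.60 in early ch+ and 8.83 to 9.86 in late. The 4 groups overlapped, and Smtn was not called in any comparison of groups. HL60 and ML1 libraries of Smtn, 3 each, averaged 9.71 ± 0.21 and 9.46 ± 0.16 (SD) in early ch-, 9.37 ± 0.26 and 9.40 ± 0.07 in early ch+, and 9.28 ± 0.52 and 9.25 ± 0.36 in late. Its log2 fold change was −0.31 (SE 0.19, adjusted p = 0.456) in early ch+ against ctrl, −0.21 (SE 0.16, adjusted p = 0.580) in early ch+ against early ch-, and −0.42 (SE 0.19, adjusted p = 0.151) in late against ctrl. The late value turned to 0.27 after rescaling to the mean total, and it was called at −0.60 without ctrl replicate 375 and at −0.54 without late replicate 397.

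Myh11 (ENSMUSG00000018830, chr16:14194535-14291372, minus strand) encodes the smooth muscle myosin heavy chain, the motor itself. The 3 control libraries had values of 12.68, 13.51 and 12.19, and it ran from 11.53 through 12.07 to 12.64 in early ch-, from 9.60 through 9.65 to 10.40 in early ch+, and from 9.81 through 11.12 to 11.49 in late. Early ch+ and late lay below every control and below every early ch- library. With the cell lines apart, Myh11 averaged 12.25 ± 0.37 (SD, n = 3) in HL60 and 11.89 ± 0.32 (SD, n = 3) in ML1 in early ch-, 10.02 ± 0.39 and 9.63 ± 0.03 in early ch+, and 11.27 ± 0.19 and 10.42 ± 0.64 in late. Myh11 fell in early ch+ against ctrl (log2 fold change −2.97, SE 0.28, adjusted p = 3.80e-08), against early ch- (−2.25, SE 0.23, adjusted p = 8.00e-08), and in late against ctrl (−1.95, SE 0.28, adjusted p = 8.40e-06). The log2 fold change of early ch- against ctrl was −0.72 (adjusted p = 0.284), and it ran from −1.02 to −0.36 with 1 library left out.

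Myl9 (ENSMUSG00000067818, chr2:156775420-156781658, plus strand) encodes the regulatory light chain whose phosphorylation switches the motor on. Its control values were 10.80, 11.56 and 10.34, and it ran from 10.08 through 10.34 to 11.05 in early ch-, from 8.51 through 8.65 to 9.53 in early ch+, and from 9.83 through 10.33 to 10.66 in late. Early ch+ lay below all other groups with no overlap, and late overlapped ctrl and early ch-. HL60 and ML1 libraries of Myl9, 3 each, averaged 10.67 ± 0.35 and 10.18 ± 0.13 (SD) in early ch-, 8.86 ± 0.38 and 8.85 ± 0.59 in early ch+, and 10.47 ± 0.27 and 10.17 ± 0.29 in late. Myl9 fell in early ch+ against ctrl (log2 fold change −2.05, SE 0.25, adjusted p = 3.53e-06) and against early ch- (−1.57, SE 0.20, adjusted p = 3.19e-06). Comparing late with ctrl, its log2 fold change was −0.58 (adjusted p = 0.112), and it turned to 0.11 after rescaling to the mean total. It was called in late against ctrl without ctrl replicate 375 (−0.86), late replicate 397 (−0.65), late replicate 399 (−0.64), early ch- replicate 528 (−0.58) or early ch+ replicate 539 (−0.58), and it was −0.25 without ctrl replicate 374.

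Mylk (ENSMUSG00000022836, chr16:34745210-35002420, plus strand) encodes myosin light chain kinase and also has a longer product in other cell types. Its log2 values were 11.65 to 12.27 in ctrl, 11.16 to 11.65 in early ch-, 10.22 to 11.33 in early ch+ and 11.16 to 11.61 in late. All 3 leukemic groups lay below every control, by small margins in early ch- and late, and they overlapped one another. With the cell lines apart, Mylk averaged 11.50 ± 0.14 (SD, n = 3) in HL60 and 11.32 ± 0.15 (SD, n = 3) in ML1 in early ch-, 11.16 ± 0.18 and 10.68 ± 0.45 in early ch+, and 11.36 ± 0.12 and 11.39 ± 0.22 in late. Mylk fell in early ch+ (log2 fold change −1.01, SE 0.18, adjusted p = 0.000555) and in late (−0.56, SE 0.18, adjusted p = 0.0291) against ctrl, where in late rescaling to the mean total turned it to 0.14 and leaving out ctrl replicate 374 ended the call, at −0.39. It fell in early ch+ against early ch- (−0.49, SE 0.15, adjusted p = 0.0464), and that call was lost without early ch- replicate 528 (−0.44), early ch+ replicate 539 (−0.44) or early ch+ replicate 541 (−0.35), and after rescaling (−0.34). In early ch- against ctrl its log2 fold change was −0.52 (adjusted p = 0.189), called without early ch+ replicate 541.

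Myocd (ENSMUSG00000020542, chr11:65176561-65269989, minus strand) encodes myocardin, the coactivator that binds serum response factor. Its control values lay close together at 7.71, 7.72 and 7.66. It ran from 6.86 through 7.03 to 7.42 in early ch-, from 4.07 through 5.23 to 5.88 in early ch+, and from 4.59 through 6.07 to 6.62 in late. All 3 leukemic groups lay below every control, and both early ch+ and late lay below every early ch- library. HL60 and ML1 libraries of Myocd, 3 each, averaged 7.06 ± 0.31 and 7.09 ± 0.19 (SD) in early ch-, 5.21 ± 0.59 and 5.09 ± 0.93 in early ch+, and 6.27 ± 0.34 and 5.58 ± 0.86 in late. Myocd fell in early ch+ against ctrl (log2 fold change −2.55, SE 0.38, adjusted p = 6.06e-05), against early ch- (−1.92, SE 0.31, adjusted p = 7.52e-05), and in late against ctrl (−1.77, SE 0.38, adjusted p = 0.000971). For early ch- against ctrl the log2 fold change was −0.62 (adjusted p = 0.551), although no early ch- library reached the lowest control.

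Groups that did not overlap were counted over all tested genes as well. Every early ch+ library lay below every control for 7 of the 10 genes (3.9% of all tested genes) and below every early ch- library for 6 (1.33%). Every late library lay below every control for 6 (9.93%), and every early ch- library did so for 2, Mylk and Myocd (2.43%).

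The late group was also set against both early groups, which asks how the genes stood at late time points beside cells near and away from leukemia cells at early ones. Against early ch+, 7 genes were called higher in late (8.79% of all tested genes): Tagln by 1.63, Myl9 by 1.46, Lmod1 and Acta2 by 1.18 each, Myh11 by 1.02, Myocd by 0.78 and Mylk by 0.45 on the log2 scale. Every late library lay above every early ch+ library for Tagln and Myl9 (3.61% of all tested genes). The Mylk call was lost without early ch+ replicate 541, at 0.31. The Myocd call (adjusted p = 0.0907) was lost when any of 11 libraries was left out, with values from 0.56 without early ch+ replicate 539 to 0.81 without early ch+ replicate 538. The 11 are early ch+ replicate 539, late replicates 581, 583, 397, 398 and 399, early ch+ replicates 524, 525 and 538, and early ch- replicates 527 and 546. Actg2 and Cnn1 differed by 0.70 and 0.75 without a call, and Smtn by −0.11. After rescaling to the mean total all 10 genes were called higher, as were 65.1% of all tested genes, and Smtn turned to 0.50.

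Against early ch-, 4 genes were called lower in late (12.3% of all tested genes). The log2 fold changes were −1.25 for Cnn1, −1.23 for Myh11, −1.15 for Myocd and −0.76 for Acta2, and every late library lay below every early ch- library for Myh11 and Myocd (5.56%). Rescaling to the mean total left Myh11 called at −0.46, ended the calls of Cnn1 (−0.48) and Myocd (−0.38), and moved Acta2 to 0.00. Under it 4 genes were called higher in late, Actg2 (1.09), Mylk (0.73), Myl9 (0.66) and Smtn (0.45), as were 74.6% of all tested genes. Tagln had a log2 fold change of −0.63 (adjusted p = 0.126), which was called without late replicate 397 (−0.74), early ch- replicate 546 (−0.76), early ch+ replicate 524 or early ch+ replicate 539 (both −0.63). Smtn, at −0.32, was called at −0.44 without late replicate 397. The sign of Tagln turned under that rescaling, to 0.14, as did that of Lmod1, to 0.49. The median of all genes was 0.00, so the values of Cnn1, Myh11, Myocd and Acta2 relative to it were the same to 2 decimals.

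**Figure D2:**
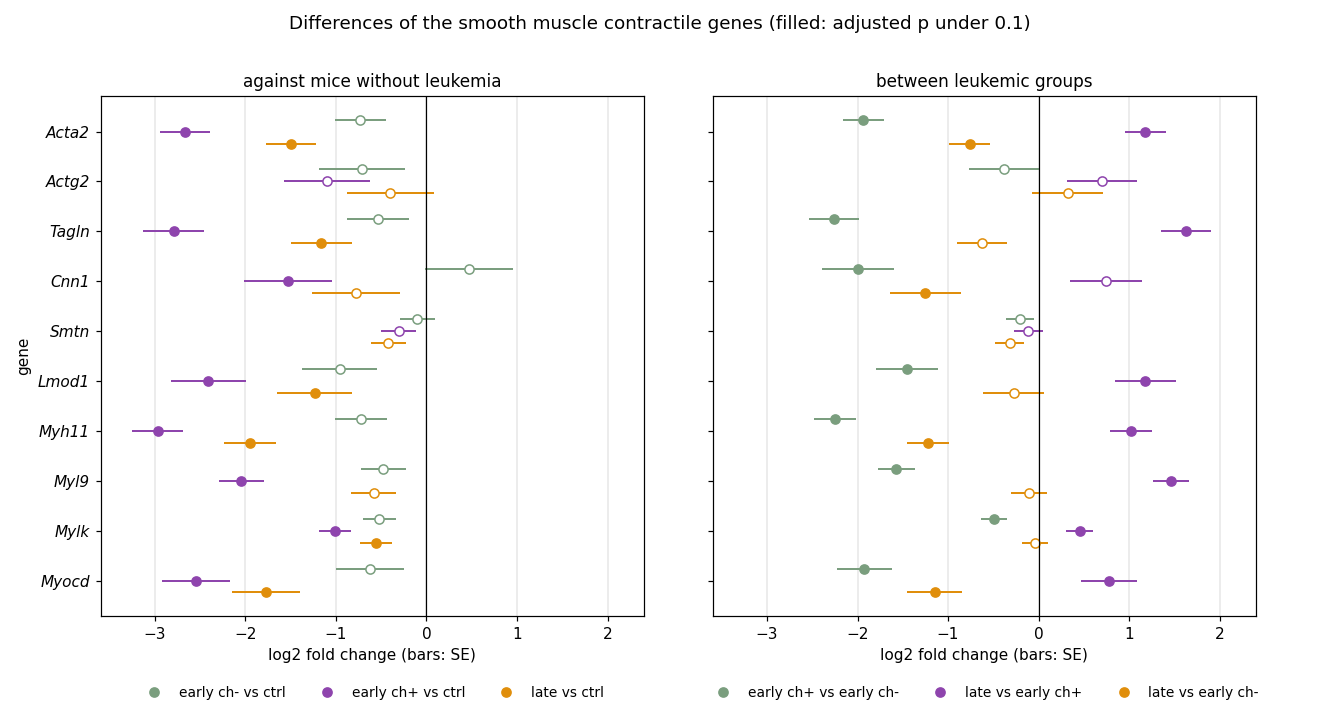
Log2 fold change of each gene (x axis, bars ± SE of the limma fit, filled points called at an adjusted p under 0.1), against ctrl on the left and between leukemic groups on the right. Early ch+ against ctrl ran from −2.97 for Myh11 to −0.31 for Smtn. After rescaling to the mean total, late against ctrl turned positive for Actg2, Smtn, Myl9 and Mylk, late against early ch+ for Smtn, and late against early ch- for Acta2, Tagln, Smtn, Lmod1, Myl9 and Mylk.

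Relative to the median of all genes, late against ctrl was lowest for Myh11 at −1.97, followed by Myocd at −1.79, Acta2 at −1.51, Lmod1 at −1.25 and Tagln at −1.18. Mylk stood at −0.58 on that relative scale and Myl9 at −0.60. After rescaling to the mean total 3 genes were called lower in late against ctrl, Myh11 (−1.26), Myocd (−1.08) and Acta2 (−0.80), as were 3.98% of all tested genes, while 60.0% were called higher. The count of 6 also became 3 without ctrl replicate 374 (9.26% of all tested genes lower), and 9 without ctrl replicate 375 (9.38%).

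The cell lines were then taken apart, with 3 libraries each against the same 3 controls. In HL60, 8 of the 10 genes were called lower in early ch+ (2.46% of all tested genes), 5 in late (7.24%) and 7 in early ch+ against early ch- (1.66%). In ML1 these counts were 7 (3.22%), 7 (12.1%) and 6 (1.91%). Of the 8 in HL60, Cnn1 (−1.70, adjusted p = 0.0984) was not called in a fit of the HL60 libraries with ctrl and without ML1 (adjusted p = 0.144). In early ch- against ctrl limma called 0 genes lower in HL60 (0.678% of all tested genes; 1 gene, Mylk, had an unadjusted p under 0.05). In ML1 it called 2 (0.925%), Myh11 by −0.91 and Mylk by −0.61, both with an adjusted p of 0.0904. Besides those, Acta2, Actg2, Tagln, Lmod1 and Myl9 had an unadjusted p under 0.05 in ML1, all lower and not called. The shares of 0.678% and 0.925% are of calls, so they are no background for the genes at an unadjusted p. In a fit of the ML1 libraries with ctrl alone neither was called (adjusted p of 0.105 and 0.147), and Acta2 was (−0.92, adjusted p = 0.0543).

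In early ch+ against ctrl the log2 fold changes in HL60 and ML1 were −2.53 and −2.81 for Acta2, −2.27 and −3.31 for Tagln, −2.78 and −3.16 for Myh11, −2.04 and −2.05 for Myl9, −2.37 and −2.45 for Lmod1 and −2.49 and −2.60 for Myocd. For Cnn1 they were −1.70 and −1.35, for Mylk −0.77 and −1.25, for Actg2 −1.09 and −1.11 and for Smtn −0.32 and −0.29. The late values in HL60 and ML1 were −1.19 and −1.79 for Acta2, −1.08 and −1.25 for Tagln, −1.53 and −2.37 for Myh11 and −1.42 and −2.12 for Myocd. Lmod1 (−1.01 and −1.46) and Myl9 (−0.43 and −0.73) were called lower in late in ML1 alone.

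The difference between HL60 and ML1 was itself tested within each group. In late, 1 of the 10 genes was called, against 3.16% of all tested genes higher in HL60: Myh11 was higher in HL60 by 0.85 (SE 0.27, adjusted p = 0.0925). That call was lost without any of 12 libraries, with values from 0.54 without late replicate 582 to 0.91 without late replicate 397. Besides those 2, the libraries are ctrl replicate 373, late replicates 583, 398 and 399, early ch+ replicates 524, 538, 539 and 541, and early ch- replicates 527 and 543. It was also lost after rescaling to the mean total, at 0.60. At an unadjusted p under 0.05 there were 2 of the 10 in late, Myh11 and Acta2 (0.60, adjusted p = 0.426), both higher in HL60, against 10.9% of all tested genes in either direction. Marker lists differed between the lines in late as well: 7 of 8 osteoblast, 4 of 8 chondrocyte and 4 of 7 fibroblast markers were called higher in HL60, with medians of 2.06, 1.81 and 1.00. The summed signal, in units of 1e6, was 8.41 to 9.02 in HL60 and 7.27 to 7.46 in ML1, and the part of these differences in the Myh11 result was not tested. In early ch+ limma called 0 of the 10 genes (0.0154% of all tested genes) and 2 had an unadjusted p under 0.05, Tagln at 1.04 and Mylk at 0.49, both higher in HL60, against 7.61% of all tested genes in either direction. In early ch- it called 0 (0.0539%), with 0 at an unadjusted p under 0.05, against 6.82% of all tested genes in either direction. The cell line difference of early ch+ against early ch- gave 0 calls among the 10 genes (0.00771%). There 0 had an unadjusted p under 0.05, against 6.40% of all tested genes in either direction. For Cnn1 the difference between early ch+ and early ch- was −2.25 in HL60 and −1.74 in ML1, called in HL60 alone, and the difference between the lines was −0.51 (adjusted p = 0.962). Lmod1 was likewise called in HL60 alone, at −1.72 against −1.18 in ML1, with a difference between the lines of −0.54 (adjusted p = 0.947). For Mylk it was −0.33 in HL60 and −0.65 in ML1, called in ML1 alone, and the difference between the lines was 0.31 (adjusted p = 0.900). With 1 library left out the difference between the lines ran from −0.83 to −0.19 for Cnn1. It ran from −1.07 to −0.14 for Lmod1 and from 0.08 to 0.53 for Mylk.

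Levels were compared between genes per kilobase of exon in ctrl. On that log2 scale Acta2 stood highest at 11.12 ± 0.65 (SD, n = 3), followed by Myl9 at 10.68 ± 0.62, Myh11 at 9.87 ± 0.67, Mylk at 8.44 ± 0.31, Tagln at 8.34 ± 0.49 and Smtn at 7.56 ± 0.32. Lmod1 was at 6.21 ± 0.47, Myocd at 5.01 ± 0.03 and Cnn1 at 3.74 ± 1.57, with Actg2 between these last 2. Acta2 and Myl9, Mylk and Tagln, and Actg2 and Cnn1 were neighbours that differed by less than their SDs. The order mixes the genes that were called with those that were not: Actg2 stood near the lower end and Smtn in the middle.

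Over the 21 libraries the 45 pairs of genes had a median Pearson r of 0.701, and after each of the 7 groups by line was centred on its mean the median was 0.332. Within groups Myh11 had the highest median r with the other 9 genes, 0.663, and Actg2 the lowest, −0.074. Next lowest were Myocd at 0.257, Smtn at 0.275 and Myl9 at 0.296. The libraries share groups, cell lines and normalization, so these are descriptions. Among the genes outside the set with the highest Pearson r to its mean over the 21 libraries were Pln (0.926), Sncg (0.925), Gjc3 (0.921), Map3k20 (0.916), Pcp4l1 (0.908), Tinagl1 (0.905), Kcnk3 (0.900), Gpr20 (0.900) and Atp1b2 (0.896). Pln, which encodes phospholamban, averaged 8.34 in ctrl, 7.74 in early ch-, 5.56 in early ch+ and 6.65 in late on the log2 scale.

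Of 20 tested genes for other filament and filament-anchoring proteins, 6 were called lower in early ch+ against early ch- (2.68% of all tested genes). There 0 were called higher (3.58%), and the median log2 fold change was −0.31. The furthest were Pgm5 at −1.67 and Pdlim3 at −1.50, which encode an adhesion plaque protein and an alpha-actinin binding protein. Pgm5 was not called there with the ML1 libraries alone (−1.31). For early ch+ against ctrl 9 of the 20 were called lower (2.75% of all tested genes), and 4 without ctrl replicate 374 (1.83%). Among the 9 were Pgm5 at −2.42 and Pdlim3 at −1.88. In late against ctrl 5 were called lower (11.4% of all tested genes), with Ldb3 lowest at −2.05, and 2 without ctrl replicate 374 (9.26%). In the same comparison 3 were called higher (10.2%), with Cald1 highest at 0.69. After rescaling to the mean total 12 of the 20 were called higher and 1 lower in late, against 60.0% and 3.98% of all tested genes. The 10 contractile genes described above had 8 of 10 called lower and a median of −1.75 in early ch+ against early ch-.

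Of 20 tested genes for contraction signalling and calcium handling, 10 were called lower in early ch+ against early ch- (2.68% of all tested genes). Their median was −0.59 over the 20 genes. Pln was lowest at −2.17, followed by Kcnmb1, a subunit of the calcium-activated potassium channel, at −1.77. With the ML1 libraries alone Kcnmb1 was −1.78 there and not called. When early ch+ was compared with ctrl, 11 were called lower (2.75% of all tested genes), with Kcnmb1 at −3.06 and Pln at −2.77. Without ctrl replicate 374 there were 7 (1.83%). For late against ctrl 8 were called lower (11.4% of all tested genes), 5 without ctrl replicate 374 (9.26%), with Kcnma1 lowest at −2.62. The endothelin receptor gene Ednra was the 1 gene called higher there, at 1.51, against 10.2% of all tested genes. There were 2 such genes without ctrl replicate 373, ctrl replicate 374, late replicate 397 or early ch+ replicate 524. After rescaling to the mean total 9 of the 20 were called higher (60.0% of all tested genes) and 3 lower (3.98%).

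Among 10 tested regulators around serum response factor, Srf itself was not called: its log2 fold change was −0.39 in early ch+, −0.08 in early ch- and −0.35 in late, all against ctrl, and −0.31 in early ch+ against early ch-. In early ch+ against ctrl 2 were called, both higher, Fhl1 at 1.35 and Mrtfa at 0.98 (3.41% of all tested genes higher). No regulator was called lower there, but 1 was without late replicate 583, late replicate 397 or early ch+ replicate 541. The Mrtfa call was lost without ctrl replicate 373 (0.89) or 375 (0.69), and with the ML1 libraries alone (0.68). For early ch+ against early ch- Fhl1 at 1.25 and Mrtfb at 0.42 were called higher (3.58% of all tested genes). Mrtfb was not called without early ch+ replicate 523 (0.40) or 524 (0.38) or early ch- replicate 528 (0.39) or 544 (0.37). Nor was it called with the HL60 libraries alone (0.45) or the ML1 libraries alone (0.39). Mrtfa and Mrtfb encode coactivators related to myocardin. Comparing late with ctrl, 3 were called lower (11.4% of all tested genes), with Mef2c lowest at −2.22, and 2 higher (10.2%), with Fhl2 highest at 1.22.

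The non-muscle paralogues of the same proteins were taken as a comparison within each protein family. When early ch+ was compared with ctrl, limma called 0 of 11 (2.75% of all tested genes lower, 3.41% higher). An unadjusted p under 0.05 was found for 3 (16.8%). Their log2 fold changes ran from −0.28 for Cnn3 to 0.50 for Tpm3. In early ch+ against early ch- the actin genes Actb and Actg1 differed by −0.06 and 0.32 and the myosin heavy chain genes Myh9 and Myh10 by 0.21 and 0.01, none called. There 1 of 11, Tagln2, was called higher by 0.77, against 3.58% of all tested genes (3 of 11 without late replicate 398, 2 without early ch+ replicate 538). After rescaling to the mean total Actb in that comparison was 0.09 and Actg1 was called higher at 0.47, as it was at 0.32 without late replicate 398. In late against ctrl 4 of 11 paralogues were called higher (10.2% of all tested genes), with Tagln2 at 0.98 and Myh9 at 0.75 furthest, and 10 of 11 after that rescaling (60.0%), Actb (0.07 as deposited, 0.76 rescaled) among them.

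Markers of cell types that share contractile genes or could enter the gate were counted beside these results, and their part in the result was not tested. Over all tested genes 2.75% were called lower and 3.41% higher in early ch+ against ctrl. The shares were 2.68% and 3.58% in early ch+ against early ch-, and 11.4% and 10.2% in late against ctrl. In early ch- against ctrl 1.13% were called higher. Blood cells of both species had been depleted with magnetic beads, and per the methods the remaining cells were stained for CD45, Ter119 and CD31 before the sort. Of 10 tested pericyte markers, 4 were called lower in early ch+ against early ch-, Mcam at −1.66, Ndufa4l2 at −1.41, Notch3 at −0.83 and Rgs5 at −0.55. Ndufa4l2 was not called there with the HL60 libraries alone (−1.27) or the ML1 libraries alone (−1.54). The same 4 were called lower against ctrl, with Mcam at −1.99, Ndufa4l2 at −1.76 and Rgs5 at −0.71, where Ndufa4l2 was not called without ctrl replicate 373 (−1.60) or 375 (−1.54). For late against ctrl 3 pericyte markers were called higher, with Pdgfrb at 2.00, and 2 lower, Cspg4 at −1.97 and Rgs5 at −0.66, the latter turning to 0.03 after rescaling to the mean total. The mean log2 value of 11 pericyte markers was 8.42 in ctrl, 8.36 in early ch-, 7.88 in early ch+ and 8.56 in late, with Rgs5 the most abundant. Of the 10 CAR and mesenchymal markers 6 were called higher in early ch+ and 7 in late against ctrl, where 1 was called lower (0 without ctrl replicate 374, ctrl replicate 375, late replicate 582 or late replicate 583), and Cxcl12 was the most abundant.

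Chondrocyte markers were called lower for 8 of 8 genes in early ch+ against ctrl, in early ch+ against early ch- and in late against ctrl. Their log2 summed level averaged 16.57 in ctrl, 15.70 in early ch-, 13.77 in early ch+ and 12.72 in late, with Col2a1 the most abundant gene. Of 5 Schwann cell markers 4 were called lower and 1 higher in early ch+ against early ch-. Osteoblast markers gave 0 calls of 8 in limma in early ch+ against ctrl, with 0 at an unadjusted p under 0.05, and 7 of 8 were called lower in late, where their log2 summed level averaged 17.54 against 20.44 in ctrl. That late mean pools 2 separate sets of libraries, with a summed level of 381213 to 486460 in HL60 and 64539 to 111909 in ML1. Of 7 fibroblast markers 3 were called higher in early ch+ against early ch-, and 5 lower and 1 higher in late against ctrl. Skeletal muscle markers stood near the lowest values, with a mean over 9 genes of 3.52 in ctrl, 4.52 in early ch-, 4.35 in early ch+ and 2.82 in late. Of the 5 that were tested 3 were called higher and 1 lower in early ch+ against ctrl. Of 12 striated muscle paralogues 3 passed the filter, such as the skeletal actin gene Acta1 at 2.73, and all 3 were called higher in that comparison. The filter takes the mean over all libraries, so a gene low in ctrl can pass through the groups where it is high. The same holds for the blood and red cell markers below. No conclusion is drawn from the counts of these muscle lists, nor from those of blood and red cell markers called higher against ctrl.

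Blood cell markers were called higher for 7 of 7 tested genes in early ch+ against ctrl and for 6 in early ch-, and red cell markers for 7 of 7 in both. In late against ctrl 4 of 7 red cell markers and 2 of 7 blood cell markers were called lower (11.4% of all tested genes). The blood cell count was 1 without ctrl replicate 373 (9.8%) or 375 (9.38%). The log2 summed level of red cell markers averaged 6.62 in late and 8.86 in ctrl. For early ch+ against early ch- limma called 0 of these 14 genes, 0 also at an unadjusted p under 0.05. Their log2 summed levels were near each other in the 2 early groups, at 10.66 in early ch+ and 10.78 in early ch- for blood cells and at 12.98 and 12.87 for red cells. The most abundant genes were Lyz2 and Hbb-bs. Endothelial markers gave 0 calls of 7 in limma in early ch+ against ctrl and in early ch+ against early ch-, with 0 at an unadjusted p under 0.05 in both.

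Members that move together can share sequence elements, so the promoters were searched for the CArG box, the element that serum response factor binds, and for CArG-like elements with a single G or C among the 6 central letters. Both forms are palindromic, so the search covers both strands. RefSeq sequences of GRCm38.p6, from 250 bases before to 50 after a RefSeq start, were available for 6 of the 10 genes: Acta2, Cnn1, Lmod1, Myl9, Mylk and Smtn. The table holds none for Actg2, Myh11, Myocd and Tagln. A CArG box was found in 1 of the 6, Myl9, in 1.63% of all 32851 promoters and in 1.33% of the 12145 promoters of tested genes. A CArG box or CArG-like element was found in 2 of the 6, Myl9 and Acta2, in 9.98% of all promoters and in 8.75% of those of tested genes. These letters were not in the windows of Cnn1, Lmod1, Mylk and Smtn. Elements outside the windows were not searched. The windows of Mylk (chr16:34784700-34784999) and Smtn (chr11:3539243-3539542) lie inside the annotated genes, so the starts printed above were not searched for these 2. A match describes the letters alone, and binding was not measured.

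The sequences with matches follow. Capitals mark the CArG box and the CArG-like elements. The Myl9 stretch is chr2:156775214-156775419 on the plus strand, before the annotated gene, with a CArG box that starts 161 bases before the RefSeq start and a CArG-like element 99 bases before it. The Acta2 stretches are chr19:34255438-34255467 and chr19:34255388-34255417 on the minus strand, both within the first exon as annotated by GENCODE, with elements that start 84 and 34 bases before the RefSeq start.
Myl9: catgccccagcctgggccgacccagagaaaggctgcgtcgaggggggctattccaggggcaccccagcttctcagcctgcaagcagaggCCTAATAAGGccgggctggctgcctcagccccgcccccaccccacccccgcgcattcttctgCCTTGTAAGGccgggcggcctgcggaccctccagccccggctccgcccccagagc
Acta2 (84 bases before the start): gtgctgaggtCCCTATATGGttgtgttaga
Acta2 (34 bases before the start): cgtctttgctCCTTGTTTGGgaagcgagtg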

How the data were processed

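The data are RNA sequencing libraries of bone marrow Nes-low mesenchymal cells, 3 from control mice and 18 from leukemic mice. As deposited, the table holds log2 values: the authors used STAR 2.5.1b on mm10, RSEM 1.2.29 for gene counts, and DESeq2 1.10.1 for median-of-ratios scaling and the regularized transformation, according to the submitters' processing notes. The methods speak of log10, but the range of the values fits log2 and they were read so. Read depth per library is not given.

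Ensembl genes were matched to symbols by GENCODE M21 (GRCm38). Genes with a mean log2 value of at least 3.32 (a normalized count of 10) were tested, 12976 of 26852. limma 3.58.1 in R 4.3.3 fitted 4 groups over the 21 libraries and, by cell line, 7 groups, with a variance trend; tests were two-sided, adjusted by Benjamini-Hochberg, with calls at an adjusted p under 0.1. The fit was tested on simulated data. Descriptions and plots used Python 3.11.15, pandas 2.3.3, numpy 2.4.6 and matplotlib 3.10.9. The CArG search covered 250 bases before to 50 after each RefSeq start.

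The 10 genes and the lists (other contractile and filament-anchoring genes, signalling and calcium handling, SRF regulators, non-muscle and striated paralogues, and markers of cell types) were chosen with earlier results of these data known. Named are the 10 genes, up to 4 called genes a direction and comparison from each list, those with the largest absolute log2 fold change, non-muscle paralogues, the first and the most abundant gene of a marker list, and genes among the 10 most alike. Srf was named after its values were seen. Alternatives were other filters, other scalings (quantile, median, mean total), other variance models, stricter thresholds, each cell line alone, and each library left out in turn.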

Additional observations from a re-analysis of the deposited data

Results flagged for a closer look

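In the 6 late libraries Myocd was lowest in replicate 582, an ML1 library, at 4.59. Its gap to the next library was 0.669 of the whole range of the group, above Dixon's 95% limit for 6 values. That limit assumes values from a single population, while late Myocd averaged 6.27 in HL60 and 5.58 in ML1, 3 libraries each. The test was applied to 30 groups of values, and chance passes it in about 1 group in 20. Replicate 582 was also the lowest late library for Acta2, Actg2, Tagln, Lmod1, Myh11, Myl9 and Mylk, and not for Cnn1 and Smtn. Its mitochondrial share was 14.4%, against 8.04% to 9.12% in the other 5 late libraries, and its most abundant gene held 16.8% of the signal, against 21.3% to 26.2%. The cause was not tested.

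Late Myh11 differed between HL60 and ML1 by a log2 fold change of 0.85 in the test of the difference itself, with an adjusted p of 0.0925 and 3 libraries a line.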

How the results depend on the processing

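In late against ctrl 3 of the 10 genes were called lower after rescaling to the mean total (3.98% of all tested genes lower, 60.0% higher), and 3 to 9 with 1 library left out (9.26% to 11.6% of all tested genes lower). In early ch- against ctrl 1 gene was called lower with the compared groups alone (0.724% of all tested genes lower). The count was also 1 with cell line in the model (1.14%) and with ML1 alone (Acta2, 0.832%). It was 0 to 1 with 1 library left out. In late against early ch- 1 gene was called lower with HL60 alone (6.35% of all tested genes lower) and 3 with ML1 alone (9.67%). In HL60 against ML1 in late limma called 0 genes without the filter, with quantile or median scaling, after rescaling to the mean total, without the variance trend, with robust variance, at an adjusted p under 0.05, and at a log2 fold change of at least 1, and 0 to 1 with 1 library left out.

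Signs turned after rescaling to the mean total: in late against ctrl for Actg2 (0.30), Smtn (0.27), Myl9 (0.11), Mylk (0.14) and the listed gene Rgs5 (0.03), in late against early ch+ for Smtn (0.50), and in late against early ch- for Acta2 (0.00), Tagln (0.14), Smtn (0.45), Lmod1 (0.49), Myl9 (0.66) and Mylk (0.73). In late against early ch- Mylk was 0.00 with library weights and 0.07 with ML1 alone. Smtn was 0.03 in early ch- against ctrl with HL60 alone, and Actg2 0.00 in early ch+ against early ch- with ML1 alone. The listed gene Actb in early ch+ against early ch- was 0.09 after rescaling to the mean total.

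With 1 library left out, late against ctrl ran from −0.94 to 0.18 for Actg2, early ch- against ctrl from −0.36 to 1.2 for Cnn1 and −0.28 to 0.02 for Smtn, and late against early ch- from −0.18 to 0.02 for Myl9 and −0.09 to 0.01 for Mylk. The cause was not tested.

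Of the other results on the 10 genes in the comparisons of groups, 1984 kept direction and call, 26 became called and 57 lost the call. The tests between HL60 and ML1 are not in these counts. Cnn1 and Actg2 were not tested under the filter at a mean of 5. Alternatives for listed genes were chosen after seeing the data. The paper states that early ch+ and ch- cells came from the same marrow. No paired analysis was possible because the labels do not pair libraries by mouse.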
